A study of Ictidomys tridecemlineatus with 31 samples.

Results

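Nphs1, Podxl, Wt1, Synpo, Ptpro, Plce1, Cd2ap, and Magi2 are 8 genes of the podocyte, the cell that wraps the capillaries of the kidney glomerulus. They were chosen by name and not by a cutoff on their values, although earlier results of these data were known. All 8 are among the 12863 genes of the kidney table, each with 1 row. Podocytes send out interlocking foot processes, and neighboring processes are joined by the slit diaphragm, a thin protein sheet that filters plasma into the urinary space. Nphs1 (nephrin) is the adhesion protein that spans the slit. Cd2ap and Magi2 are adaptor and scaffold proteins on its cytoplasmic side, and Plce1 is a phospholipase C whose loss disturbs podocyte development. Podxl (podocalyxin) coats the apical surface with negative charge, Ptpro is a receptor phosphatase of the same surface, Synpo (synaptopodin) organizes actin in the foot processes, and Wt1 is the transcription factor that keeps the podocyte program on. Cd2ap is made in many cell types, whereas Nphs1 is close to restricted to podocytes in the kidney.

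The samples were kidneys of 31 individual 13-lined ground squirrels, a mammal that hibernates in bouts of torpor, and the assay was RNA sequencing. SA animals (n = 5) were summer active, SpD animals (n = 5) were warm again in spring and still kept in the dark hibernaculum, and the other states came from the hibernation season. Of these, Ent animals (n = 5) were cooling into torpor, EAr animals (n = 5) had begun to rewarm from it, LAr animals (n = 6) were further on in rewarming, and IBA animals (n = 5) were newly warm between bouts of torpor. None carried an engineered allele or an agent, ages are not given in the sources used here, and 17 were female and 14 male. The RNA came from a fragment of each frozen kidney, so that the mix of cortex and medulla can differ between animals. IBA, Ent, and SpD hold animals of experiment 1 (9 animals in all, TruSeq libraries) and experiment 2 (22 animals, Nugen libraries), and SA, EAr, and LAr come from experiment 2 only. Values are batch-corrected rlog values, which are counts adjusted for library size on a log2 scale, and read depth is unknown. A difference of 1 is about a 2-fold change. For genes with few counts rlog draws values together, so differences of a low gene such as Magi2 can be understated. The batch correction made the mean of each gene equal in the 2 experiments. Levels by state, their order, and overlaps can therefore be shifted between states of experiment 2 alone and states of both experiments. Levels of different genes are not compared with each other, since these values are not per length.

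K113 (LAr) and K137 (SA) stood apart in the study and were left out of its tests of differential expression, and the 29 other animals are used here unless stated. A mean over medulla and collecting duct marker genes was 12.53 in K113 and 13.33 in K137, against 10.86 to 11.09 in the other LAr animals and 11.01 to 12.14 in the other SA animals. K130 (SpD) and K104 (IBA), which the study kept, also had high means of this list (13.20 and 12.52, against at most 12.40 and 11.92 in the other SpD and IBA animals). The proximal tubule list mean was 13.43 in K130, below the 14.36 to 15.22 of the other SpD animals, and 13.88 in K104, within the 13.85 to 14.49 of the other IBA animals. Results are therefore given with and without these animals. Leaving out K104 was chosen after its values were seen.

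In both K104 and K130, 7 of the 8 genes, all but Cd2ap, were below every other animal of the same state. Nphs1 was 9.67 in K104, against 10.50 to 11.55 in the other IBA animals, and 9.95 in K130, against 11.84 to 12.06 in the other SpD animals. Ptpro was 8.78 in K104 and 8.54 in K130, against 9.79 to 10.42 and 10.31 to 10.47 in their states. In whole-tissue RNA, fewer podocytes in a fragment and less of these RNAs in each podocyte cannot be told apart. K113 was below the other LAr animals for 6 genes (all but Cd2ap and Magi2), by 0.33 to 0.54 from their mean, and above them for Cd2ap, at 11.83 against 10.89 to 11.17. K137 was below the other SA animals for Nphs1, Podxl, Wt1, Ptpro, and Magi2, by 0.095 to 0.39 from their mean, within them for Synpo and Plce1, and above them for Cd2ap, at 11.27 against 10.88 to 11.21.

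**Figure D1:**
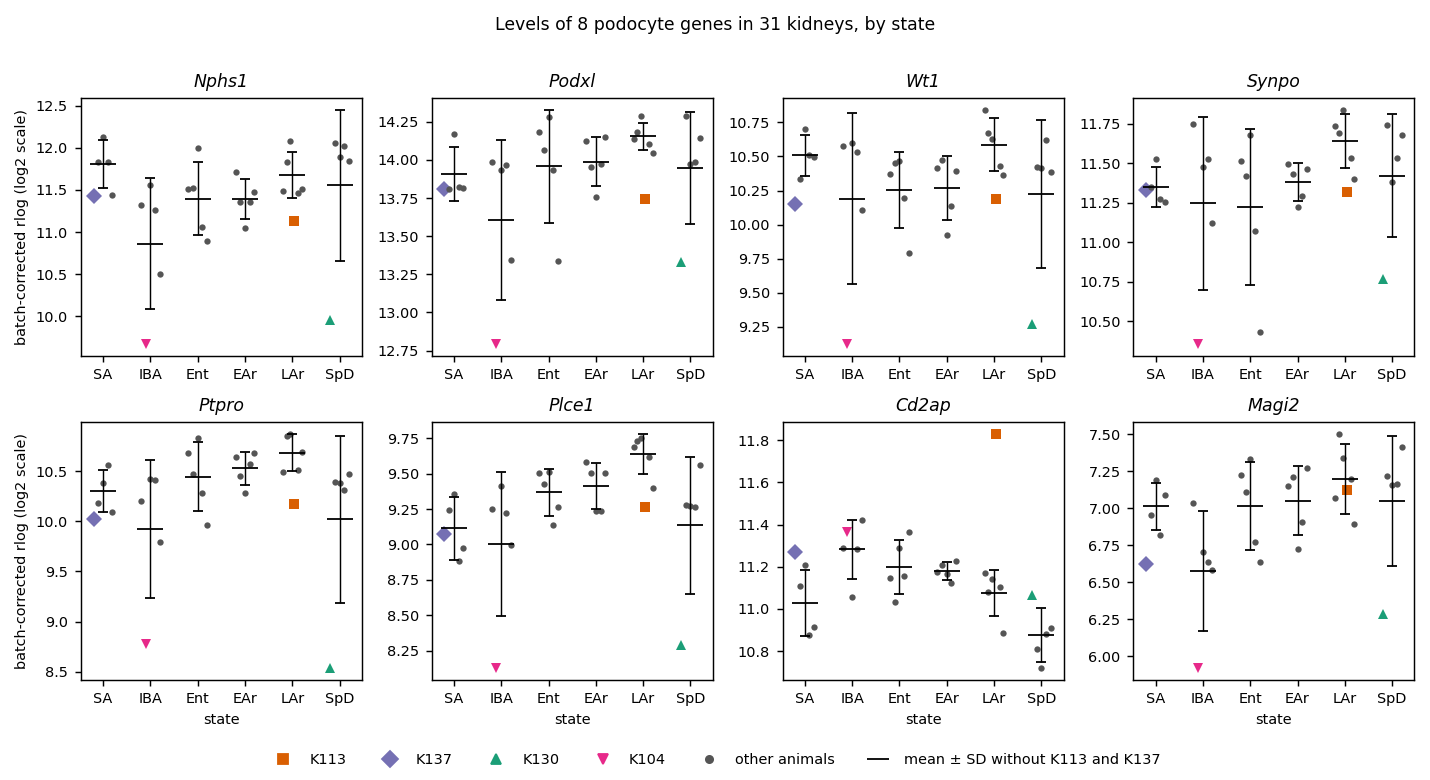
Level of each of the 8 genes in all 31 kidneys by state, as batch-corrected rlog on a log2 scale, each panel with its own axis. Points are animals, K113, K137, K130, and K104 have symbols of their own, and bars give the mean ± SD of the 29 animals without K113 and K137. K104 (IBA) and K130 (SpD) lie at the bottom of 7 panels, and in the Cd2ap panel the SpD animals are low and K113 is high.

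Nphs1, the core of the slit diaphragm, had its highest mean in SA (11.81 ± 0.28, SD, n = 4) and its lowest in IBA (10.86 ± 0.77, SD, n = 5). The 4 SA animals were at 11.44, 11.83, 11.84, and 12.12. The 5 IBA animals were at 9.67, 10.50, 11.26, 11.32, and 11.55, so that 4 of them were below every SA animal and the highest lay within the SA range. LAr animals were at 11.46, 11.48, 11.52, 11.83, and 12.08, and SpD animals, K130 aside, at 11.84, 11.89, 12.02, and 12.06. The means of Ent (11.40) and EAr (11.39) lay between those of SA, LAr, and SpD and that of IBA. Their animals overlapped with IBA and LAr animals, at 10.89, 11.06, 11.51, 11.52, and 11.9973 (K2) in Ent and 11.05, 11.35, 11.35, 11.47, and 11.71 in EAr. With all 31 animals the SA mean was 11.73, and without K130 the SpD mean rose from 11.55 to 11.95 and became the highest.

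Among the partners on the cytoplasmic side, Magi2 and Plce1 were lowest in IBA and highest in LAr, although without K130 the highest Magi2 mean was that of SpD (7.24). Magi2 was 6.58 ± 0.40 (SD, n = 5) in IBA and 7.20 ± 0.24 (SD, n = 5) in LAr, near the rlog value of 7 that the authors used as a filter for expression. That filter asked for the value in most animals of at least 1 group, so Magi2 may be in the table through states where it is high. Its lower level in IBA, and its calls against LAr and SA below, carry this limit. Its IBA animals were at 5.92, 6.58, 6.64, 6.70, and 7.03 and its LAr animals at 6.89, 7.07, 7.20, 7.34, and 7.51, an overlap of 1 IBA animal with 1 LAr animal. Plce1 was 9.003 ± 0.51 (SD, n = 5) in IBA and 9.64 ± 0.14 (SD, n = 5) in LAr. Its IBA animals were at 8.13, 8.99, 9.22, 9.25, and 9.42, and its LAr animals at 9.40, 9.62, 9.69, 9.73, and 9.75, so that the highest IBA animal just passed the lowest LAr animal. Cd2ap ran the other way, with its highest mean in IBA (11.28 ± 0.14, SD, n = 5) and its lowest in SpD (10.88 ± 0.13, SD, n = 5).

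The genes of the foot process surface and its actin were also highest in LAr, with IBA lowest for Podxl and Ptpro. Podxl was 13.60 ± 0.53 (SD, n = 5) in IBA and 14.15 ± 0.09 (SD, n = 5) in LAr, with 13.91 in SA, 13.94 in SpD, 13.96 in Ent, and 13.99 in EAr. Ptpro was 9.92 ± 0.69 (SD, n = 5) in IBA, 10.68 ± 0.18 (SD, n = 5) in LAr, and 10.02 ± 0.83 (SD, n = 5) in SpD, where it was 10.39 without K130. Synpo was lowest in Ent (11.22 ± 0.50, SD, n = 5), where K8 was at 10.43, and highest in LAr (11.64 ± 0.17, SD, n = 5). Wt1 was lowest in IBA (10.19 ± 0.63, SD, n = 5) and highest in LAr (10.59 ± 0.19, SD, n = 5), with SA at 10.51. Most neighbors in these orders did not differ beyond their spread. Of 40 steps between neighboring states, 4 were larger than the larger of the SDs of the 2 states, which were LAr above EAr for Podxl and Plce1, SA above EAr for Wt1, and SA above IBA for Magi2. The number was 1 with all 31 animals and 5 without K130.

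The first comparison asked whether any of the 8 genes differed among the 6 states, by limma with terms for sex and experiment and adjustment over all 12863 genes (q). At the study's threshold of q under 0.001, 0 of 8 genes passed, where 9.34% of all genes did. An unadjusted p under 0.05 was found for 4 of 8 genes and for at least 46.1% of all genes, the share that passed q under 0.05. At q under 0.05, Cd2ap (q = 0.0037) and Plce1 (q = 0.031) passed, 2 of 8 genes, where 46.1% of all genes did. Magi2 (q = 0.053), Ptpro (q = 0.066), Nphs1 (q = 0.11), Podxl (q = 0.17), Wt1 (q = 0.31), and Synpo (q = 0.41) did not pass. Plce1 lost its call without K104 (q = 0.056) and without any of the LAr animals K109, K111, K112, or K115 (q between 0.053 and 0.057). With all 31 animals, Plce1 alone passed (q = 0.037, with Cd2ap at 0.076), and without K130 4 genes did, Cd2ap at q = 0.00096, Nphs1 at 0.026, Magi2 at 0.030, and Plce1 at 0.035. In the 20 animals of experiment 2 alone, Cd2ap had q = 0.27, and Magi2, Plce1, Podxl, and Ptpro passed instead (q between 0.010 and 0.035).

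These genes varied more between animals of a state than most genes did. The residual SD of the fit was 0.31 to 0.55 for the 7 genes other than Cd2ap, which put them between the 88.5th and 97.9th percentile of all genes (median 0.155), and it was 0.126 for Cd2ap, at the 31.7th percentile.

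Between LAr and IBA, the step from rewarming to the warm interval, 5 of the 8 genes were lower in IBA at q under 0.05, 7 of 8 at an unadjusted p under 0.05, and 0 at q under 0.001. Over all genes, 18% passed q under 0.05 in either direction, 8.03% were called lower in IBA, and 1.43% passed q under 0.001. At least 18% had an unadjusted p under 0.05, since every gene that passed q under 0.05 did. The fitted differences, IBA minus LAr, were -1.05 ± 0.36 (SE) for Nphs1 (q = 0.046), -1.03 ± 0.32 for Ptpro (q = 0.027), -0.81 ± 0.21 for Plce1 (q = 0.012), -0.78 ± 0.21 for Magi2 (q = 0.013), and -0.67 ± 0.22 for Podxl (q = 0.036). Wt1 (-0.56, 95% interval -1.09 to -0.03, q = 0.13), Synpo (-0.51, -1.02 to -0.01, q = 0.14), and Cd2ap (0.18, -0.0048 to 0.36, q = 0.16) did not pass. For Podxl, IBA animals were at 12.79, 13.35, 13.93, 13.97, and 13.98 and LAr animals at 14.05, 14.11, 14.14, 14.19, and 14.29, so that the groups did not overlap. For Ptpro, IBA animals were at 8.78, 9.79, 10.20, 10.41, and 10.42 and LAr animals at 10.49, 10.51, 10.69, 10.85, and 10.87, again without overlap. These were 2 of 8 genes, where 13.7% of all genes did not overlap between the states, and with K113 included 0 of 8 and 5.56%.

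All 5 calls rested on K104. Without this animal, 0 of 8 genes passed in IBA against LAr, where 10.9% of all genes did. An unadjusted p under 0.05 was left for 2 of 8 genes and for at least 10.9% of all genes. The differences were -0.61 for Nphs1 (q = 0.28), -0.63 for Ptpro (q = 0.19), -0.48 for Plce1 (q = 0.10), -0.54 for Magi2 (q = 0.10), and -0.37 for Podxl (q = 0.26). In the 27 animals without K130 as well, they were -0.32, -0.36, -0.33, -0.41, and -0.25, and Wt1 was at 0.03, on the other side of 0. The Nphs1 call was lost in 21 of the 29 fits that left out 1 animal (q between 0.051 and 0.28). The Podxl call was lost without K104, K7 (IBA), K130 (SpD), or any of the 5 LAr animals (q between 0.051 and 0.26), and the Ptpro call without K104, K111, K112, or K116 (q between 0.050 and 0.19). Without K171, the IBA animal with the highest Nphs1, 7 of 8 genes passed, with Wt1 (-0.78, q = 0.040) lower and Cd2ap (0.26, q = 0.043) higher in IBA beside the 5. The count was 2 with all 31 animals (Magi2 at q = 0.018 and Plce1 at 0.020), 3 without K130 (Plce1, Magi2, and Ptpro), 2 with no term for experiment (Plce1 and Magi2, with Nphs1 at -0.81), and 4 within experiment 2, where IBA is K104 and K171 alone. The share of all genes that passed also moves between fits, from 18% in the 29 animals to 10.9% without K104. It is not given for the fit without K171 or these 4, so their counts are not read as particular to the 8 genes. As markers of other cells, the proximal tubule list mean was 13.85 to 14.49 in IBA and 14.44 to 14.86 in LAr with 1 of 12 genes called lower, the medulla list mean was 10.82 to 12.52 and 10.86 to 11.09 with 2 of 12 called higher, and their part in these differences was not tested.

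**Figure D2:**
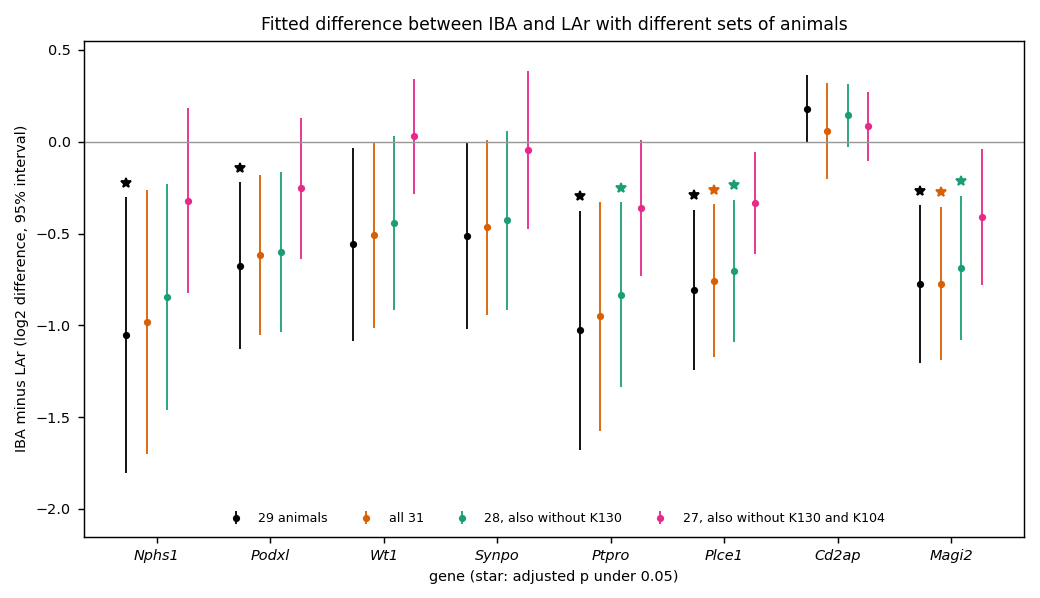
Fitted difference between IBA and LAr for each gene on the log2 scale with its 95% interval, in 29, 31, 28, and 27 animals, with a star where the adjusted p was under 0.05. Nphs1 moves from -1.05 in 29 animals to -0.32 in the 27 without K130 and K104, and no gene has a star in that set.

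Between SA and IBA, the step from summer into hibernation, Nphs1 was lower in IBA by -1.21 ± 0.38 (SE, q = 0.026) and Magi2 by -0.60 ± 0.22 (q = 0.049). These were 2 of 8 genes at q under 0.05 and 0 at q under 0.001, where 22.9% and 3.15% of all genes passed and 12.5% were called lower in IBA at q under 0.05. The other 6 ranged from -0.65 (Ptpro, q = 0.16) to 0.23 (Cd2ap, q = 0.082). Nphs1 lost its call without K104 (-0.77, q = 0.17) and without the SA animals K138 (q = 0.052), K139 (q = 0.066), or K140 (q = 0.053), and kept it with all 31 animals (q = 0.049) and without K130 (q = 0.028). The Magi2 call was lost in 22 of the 29 fits that left out 1 animal (q between 0.050 and 0.27) and with all 31 animals (q = 0.12). Proximal tubule markers moved with this comparison, with 8 of 12 called lower in IBA and list means of 13.85 to 14.49 in IBA and 15.00 to 15.18 in SA, and their part in it was not tested.

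Cd2ap was the gene with a difference between the seasons. Its mean over the 4 hibernation states was higher than its mean over SA and SpD by 0.23 ± 0.05 (SE, q = 0.0012). Not every state showed this, as the means of LAr (11.08) and SA (11.03) did not differ beyond their spread and IBA against SA did not pass (q = 0.082). Cd2ap was lower in SpD than in IBA by 0.41 on the log2 scale (SpD minus IBA -0.41 ± 0.08, q = 0.0019). SpD animals were at 10.72, 10.81, 10.88, 10.91, and 11.07 (K130) and IBA animals at 11.06, 11.28, 11.29, 11.36, and 11.42, so that K130 alone reached into the IBA range. SA animals spread from 10.88 to 11.21, EAr animals from 11.12 to 11.23, Ent animals from 11.03 to 11.36, and LAr animals from 10.89 to 11.17. Between the seasons this was 1 of 8 genes at q under 0.05 and 0 at q under 0.001, where 33.4% and 9.73% of all genes passed and 16.6% were called higher in hibernation at q under 0.05. Between SpD and IBA it was likewise 1 of 8 and 0 of 8, where 11.9% and 1.25% of all genes passed and 5.42% were called lower in SpD at q under 0.05.

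Both Cd2ap differences had a q under 0.05 in all 31 animals (0.015 and 0.033), in the 28 without K130 (0.00024 and 0.00039), in the 27 also without K104 (0.00033 and 0.0015), and in each fit that left out 1 of the 29 animals. They did not pass in experiment 2 alone (0.13, q = 0.10, and -0.21, q = 0.29). Within experiment 1, Cd2ap was 10.81 in SpD and 11.33 in IBA (n = 3 each), and within experiment 2 it was 10.97 and 11.21 (n = 2 each). Medulla markers differed between the seasons too, with 6 of 12 called lower in hibernation, as did 3 of 12 proximal tubule markers and 7 of 11 glomerular endothelial markers, all lower, and their part in the Cd2ap difference was not tested. K130 also set the other counts between SpD and IBA. Without it, Nphs1 (1.08, q = 0.012) and Magi2 (0.64, q = 0.020) were higher in SpD than in IBA as well, the 2 groups did not overlap for Nphs1, Cd2ap, and Magi2 (3 of 8 genes, where 11.4% of all genes did not overlap), and Nphs1 was lower in hibernation than in the active states (-0.55, q = 0.019). With K130, Nphs1 was at 0.69 (q = 0.17) and -0.35 (q = 0.20) in these comparisons.

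No call was made for any of the 8 genes between the remaining pairs of states or between the sexes in the 29 animals, at q under 0.05 or under 0.001. For SA against SpD, 10.5% of all genes passed q under 0.05 and 0.0544% passed 0.001, and Nphs1 differed by 0.52 ± 0.38 (SE, q = 0.38). For Ent against IBA the shares were 13.1% and 0.746%, and the nearest of the 8 genes was Magi2 at 0.44 ± 0.19 (q = 0.12). Magi2 was the 1 gene of the 8 with an unadjusted p under 0.05, where at least 13.1% of all genes had one. Without K8 (Ent), Podxl (0.55, q = 0.045) and Magi2 (0.58, q = 0.042) passed there. For EAr against Ent they were 0.257% and 0.132%, for LAr against EAr 0.575% and 0.295%, and for males against females 0.218% and 0.0233%, with 0 of 8 genes at an unadjusted p under 0.05 in these 3 comparisons and in SA against SpD. The sex differences of the 8 genes, male minus female, lay between -0.19 (Nphs1) and 0.00 (Cd2ap), each with an SE of 0.05 to 0.20. The interaction of sex with season did not pass for any of them (q = 0.99 for each, where 0 genes of the table passed and 0 of 8 had an unadjusted p under 0.05). Its estimates lay between -0.11 (Cd2ap) and 0.52 (Nphs1), so a seasonal difference that differs between the sexes is not shown to be absent.

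The clearest pattern among these genes was that 7 of them rose and fell together from animal to animal within a state. With each value taken as its deviation from its state mean, Nphs1 went with Ptpro (r = 0.959, rho = 0.917), Wt1 (0.905, 0.798), Plce1 (0.901, 0.833), Podxl (0.898, 0.878), Synpo (0.869, 0.866), and Magi2 (0.855, 0.739) over the 29 animals, with r first and rho after it. Permutation p values within states, adjusted over the 23 relations computed, were between 7.67e-05 and 0.00033 for r and between 7.67e-05 and 0.00053 for rho. The raw p of 1e-05 behind the lowest is the smallest that 100000 permutations can give. Without K104 and K130, the 2 animals farthest from the median of Nphs1, r was 0.642 to 0.866 (adjusted permutation p at most 0.0097). Among the 9 animals of experiment 1 r was 0.758 to 0.935, and among the 20 of experiment 2 it was 0.854 to 0.966. These deviations were still taken from state means over both experiments. K104 and K130 enter those means, so the values for experiment 1 are not free of these 2 animals. Cd2ap did not follow, with r = -0.375 to Nphs1 (rho = -0.268, adjusted permutation p = 0.099 and 0.26) and -0.111 without those 2 animals. Among the 21 pairs that the 7 genes form, r of the deviations from state means lay between 0.832 and 0.964 with a median of 0.883, and the 7 pairs with Cd2ap lay between -0.469 and -0.180. Pairs without Nphs1 were not computed again without K104 and K130.

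**Figure D3:**
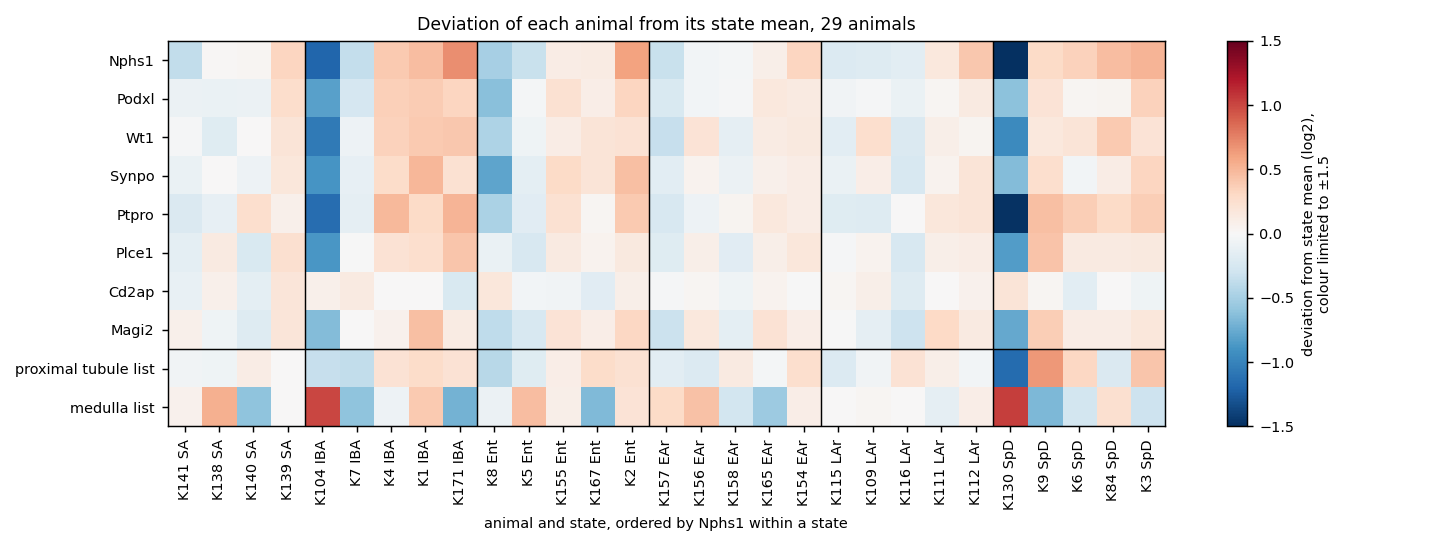
Deviation of each of the 29 animals (columns, grouped by state) from its state mean on the log2 scale for the 8 genes and for the means of the proximal tubule and medulla lists (rows), red above and blue below the mean. Columns are mostly of 1 color over Nphs1, Podxl, Wt1, Synpo, Ptpro, Plce1, and Magi2, with K104 and K130 the darkest blue, and the Cd2ap row is pale.

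The mean of 12 proximal tubule genes, such as Lrp2 and Slc34a1, moved with them in the same animals. Its r with the 7 genes was 0.688 (Wt1) to 0.843 (Ptpro), with rho from 0.544 to 0.751, and with Cd2ap it was -0.559 (rho = -0.554). All 8 passed after adjustment over the 23 relations (permutation p for r at most 0.0065 and for rho at most 0.016). Without K130 and K7, the animals farthest from the median of that list, r was 0.494 to 0.689 for the 7 genes, of which 6 passed and Wt1 did not (adjusted permutation p = 0.070), and -0.406 for Cd2ap (p = 0.082). Among the animals of each experiment, again with state means over both, the sign was the same. For the 7 genes r was 0.765 to 0.912 in experiment 1 and 0.631 to 0.826 in experiment 2, and for Cd2ap -0.557 and -0.645. For the medulla list, r was -0.658 (Ptpro) to -0.407 (Synpo) for the 7 genes and 0.442 for Cd2ap, and these relations rested on K130 and K104. Without both, they lay between -0.200 and 0.112 for the 7 genes (Cd2ap 0.288) and 0 of 8 passed (adjusted permutation p at least 0.35). The values by experiment used deviations from state means over both experiments, which K130 and K104 enter. Among the animals of experiment 1 they lay between -0.394 and 0.187 (Cd2ap -0.107), a range that is therefore not free of these 2 animals. Among those of experiment 2, which holds both animals, they lay between -0.779 and -0.591 (Cd2ap 0.653). None of the 8 relations with the medulla list passed by rho (adjusted permutation p at least 0.055, and 1 of 8 had an unadjusted p under 0.05).

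**Figure D4:**
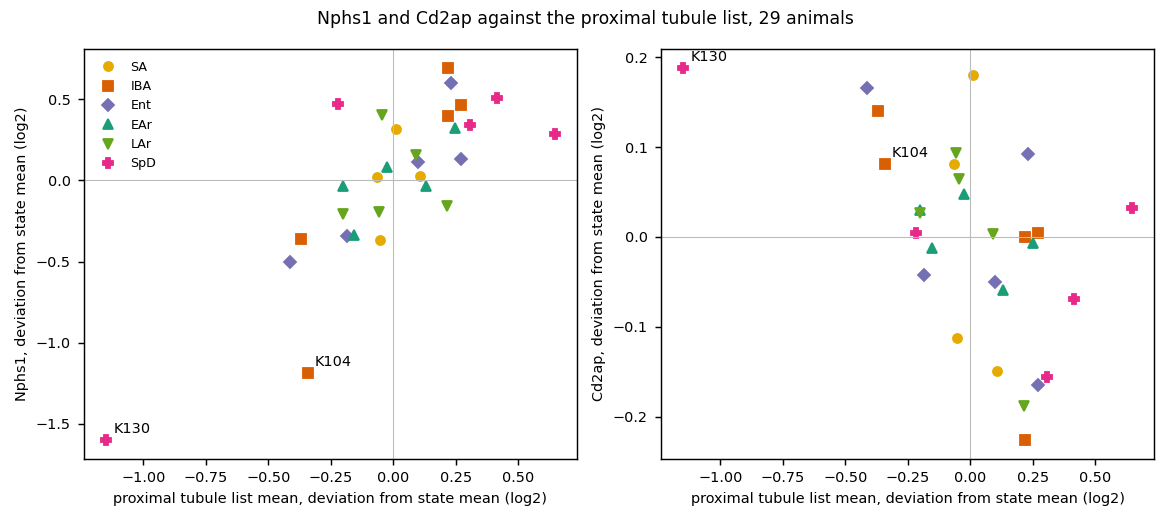
Deviation of Nphs1 (left) and Cd2ap (right) from the state mean against that of the proximal tubule list mean, both on a log2 scale, with 1 point for each of the 29 animals and symbols for the states. Nphs1 rises with the list (r = 0.803), K104 and K130 are lowest for Nphs1, and Cd2ap falls with it (r = -0.559) over a narrower range.

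Genes with the most similar values over the 29 animals, differences between states included, were largely known podocyte genes for 7 of the 8. Nphs1 was followed by Ddn, a partner of the slit diaphragm complex (r = 0.925), and Tnnt2 (0.907). Podxl was closest to Sema3g (0.959), Spock2 (0.940), and Nes (0.925). Ptpro was closest to Crb2, a polarity protein found at the slit diaphragm (0.964), the heparan sulfatase Sulf1 (0.937), and Tdrd5 (0.933). Plce1 was closest to Tdrd5 (0.948), Crb2 (0.933), and the Golgi protein Golim4 (0.928). Magi2 was closest to Crb2 (0.869), the leptin receptor Lepr (0.850), and Vegfa, the growth factor that podocytes supply to the capillary (0.844). Wt1 was closest to Creb3l1 (0.902), the podocyte transcription factor Lmx1b (0.871), and Nes (0.862), and Synpo to Zbtb7c (0.903), Sema3g (0.901), and Lmx1b (0.888). Cd2ap was closest to the actin regulator Abi1 (0.838), Pphln1 (0.831), and Lrrc40 (0.810), and none of the other 7 genes was among its 20 nearest, whereas 2 to 6 of the 8 were among the 20 nearest of each of the others. These likenesses are descriptions, since the animals of a state share their season and experiment. They include K104 and K130, which were low for the same 7 genes, and were not computed without these animals.

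Other podocyte genes of lists chosen for this purpose moved with IBA against LAr in part. Over all genes, 18% passed q under 0.05 in this comparison and 8.03% were called lower, and the counts of the lists are to be read against these shares. Of 24 genes in the list of other podocyte-enriched genes, 10 were lower and 1 higher in IBA, and the list median was -0.48, against -0.01 over all genes. The list was fixed by name and its genes were not checked against other kidney cells. Its counts can therefore include RNA of tubule cells and are not a result about podocytes alone. Robo2, a guidance receptor that binds the nephrin complex, was lower by -0.998 ± 0.27 (SE, q = 0.013), Pdpn by -0.77 ± 0.18 (q = 0.0063), Tdrd5 by -0.77 ± 0.22 (q = 0.017), Golim4 by -0.46 ± 0.12 (q = 0.013), and the aminopeptidase Enpep by -0.43 ± 0.12 (q = 0.017). The stress-response gene Nupr1 was higher, by 1.29 ± 0.36 (q = 0.016). Of 14 partners of the slit diaphragm, 3 were lower, among them Crb2 (-0.90 ± 0.29, q = 0.031) and Ildr2 (-0.81 ± 0.27, q = 0.042), and 3 were higher, namely the adaptors Nck1 (0.37 ± 0.09, q = 0.0060) and Nck2 (0.28 ± 0.08, q = 0.017) and Cdh5 (0.64 ± 0.20, q = 0.031). Nck1 and Nck2 bind nephrin but are made in most cells, and Cdh5 is also a marker of endothelium.

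Of 10 podocyte transcription factors, 1 was lower and 1 higher in IBA, the latter being Yap1 (0.35 ± 0.10, q = 0.021), and the list median was 0.01. Of 16 cytoskeletal genes, Rhpn1 was lower (-0.78 ± 0.26, q = 0.040) and Iqgap1 higher (0.40 ± 0.10, q = 0.012), with a median of -0.04. Rhpn1 is also in the podocyte-enriched list and is counted as lower there too. The counts of these 2 lists lie near the share over all genes. None of the 14 genes of the glomerular basement membrane and its receptors passed (q between 0.059 and 0.98, median 0.09). Without K130 and K104, 1 of 24 podocyte-enriched genes, 1 of 14 partners, 0 of 16 cytoskeletal genes, 0 of 14 basement membrane genes, and 2 of 10 transcription factors (both higher in IBA) passed, where 9.36% of all genes did, and the median of the podocyte-enriched list was -0.21. Markers of the glomerular endothelium (2 of 11 higher and 1 lower), parietal epithelium (2 of 5 higher), leukocytes and macrophages (2 of 6 higher), and mesangium and pericytes (0 of 8) were mostly higher in IBA or did not pass, and their list means overlapped between IBA and LAr except for the parietal epithelium (10.92 to 11.30 in IBA and 10.71 to 10.89 in LAr).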

How the data were processed

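The table analysed here holds 31 kidneys, from which the authors made polyadenylated RNA libraries. They trimmed the reads (cutadapt), set mitochondrial reads aside (hisat2), counted transcripts on HiC_Itri_2 (Salmon), took them to genes (tximport), kept genes with an rlog of at least 7 in most animals of a group, and put counts on the rlog scale. The authors computed these with DESeq2 and then took out the effect of experiment with limma. The deposited values are these batch-corrected rlog values on a log2 scale. In them the mean of each gene is equal in the 2 experiments (largest difference 1.07e-14), although SA, EAr, and LAr are in experiment 2 only. The experiment term fitted here, experiment 2 minus 1, was -0.44 (Ptpro) to -0.20 (Synpo) for the 7 genes other than Cd2ap (q at least 0.87 by limma). Fitted differences can therefore differ from differences of the printed state means. Counts are not in the table, so depth and counting error are unknown, and p values measure the spread between animals.

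Groups came from the labels. All 12863 genes went into 1 limma model (limma 3.58.1, R 4.3.3) of state, sex, and experiment, in which the variance could depend on the level. Adjustment was by Benjamini-Hochberg for each comparison, read at 0.001 and 0.05, and the model stands in place of the authors' test on counts. The experiment term rests on IBA, Ent, and SpD, and the degree of freedom that the authors' correction used is not counted. Correlations used 100000 permutations within states, 2-sided. The fit was tested on simulated data. Other tools were Python 3.11.15, numpy 2.4.6, pandas 2.3.3, and matplotlib 3.10.9.

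The 8 genes and the gene lists were chosen with earlier results of these data known. Genes named are the 8, the 3 most similar to each, and up to 6 called genes of a list in order of q. Some genes under this rule are not reported here. Each of the 8 matched 1 symbol in RefSeq (mIctTri1.hap1). That assembly differs from HiC_Itri_2, and no position or sequence is printed. Alternatives were other sets of animals (all 31, 28 without K130, 27 also without K104, experiment 2), models without the experiment, sex, or trend term, a robust prior, animal weights, median centering, a minimum mean of 8, and each animal left out. The 27 animals were chosen after seeing the data.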

Additional observations from a re-analysis of the deposited data

Results flagged for a closer look

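In 48 checks of the highest and lowest animal of a state, 8 genes in 6 states, 7 values lay farther from the rest than Dixon's 95% critical value allows, and chance alone passes it in about 1 of 20. K130 was low within SpD for 5 genes, at 9.95 for Nphs1 (next animal 11.84), 9.27 for Wt1 (10.39), 8.54 for Ptpro (10.31), 8.29 for Plce1 (9.27), and 6.28 for Magi2 (7.16), and these 5 values come from 1 kidney and are not independent. K139 was high within SA for Podxl, at 14.17 against 13.82 in the next animal. K113 was high within LAr for Cd2ap, at 11.83 against 11.17. K104, the lowest IBA animal for 7 genes, did not pass the check for any gene. No difference between the seasons that differed by sex was found for any of the 8 genes.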

How the results depend on the processing

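No paired analysis was possible because the groups share no replicate numbers. Counts of the 8 genes at q under 0.05 moved in 6 comparisons. The share of all genes that passed can move with the alternative too and is not given for each of them. A changed count is therefore not read as particular to the 8 genes. Among the 6 states (2 in the 29 animals), the count was 1 with all 31 animals and with no term for experiment, 4 without K130 and in experiment 2 alone, 6 with animal weights, and 1 to 5 with each animal left out (1 without K104, 5 without K8). For IBA against SA (2), it was 1 with all 31 animals, without K130, with no term for experiment or for sex, and with genes of a mean of at least 8 (which drops Magi2), 0 in the 27 animals (also 0 at an unadjusted p under 0.05 by limma), and 0 to 4 with each animal left out (0 without K104, 4 without K171). For Ent against IBA (0), it was 5 with animal weights and 0 to 2 with each animal left out (2 without K8). For IBA against LAr (5), it was 2 with all 31 animals and with no term for experiment, 3 without K130, 0 in the 27 animals, and 0 to 7 with each animal left out. For SpD against IBA (1), it was 3 without K130 and with animal weights, 2 in the 27 animals, 0 in experiment 2 alone, and 1 to 3 with each animal left out. Between hibernation and the active states (1), it was 2 without K130, 3 in the 27 animals, 0 in experiment 2 alone, and 1 to 2 with each animal left out. At q under 0.001 (0 in each), Cd2ap made the count 1 among the 6 states and for SpD against IBA without K130 and with animal weights, and between the seasons without K130, with animal weights, with no term for sex, with median centering, and in the 27 animals, and the range with each animal left out was 0 to 1 in all 3. Counts stayed at 0 under every alternative run for SA against SpD, EAr against Ent, LAr against EAr, and male against female. Of the 23 relations between animals, 20 passed in the 29 animals, 10 in the 27, and 12 without the 2 animals farthest from the median. The direction turned for Wt1 in IBA against LAr (0.0305 in the 27 animals), for the medulla list with Nphs1 (r = 0.0186), Wt1 (r = 0.0426), Magi2 (r = 0.0164), Podxl (r = 0.0357), and Synpo (r = 0.112) without K130 and K104, and for that list with Cd2ap (r = -0.0676) in values not centered on state means. Differences that did not pass in the 29 animals also crossed 0 under some alternative for Wt1, Synpo, Ptpro, and Plce1 in IBA against SA (up to 0.243, for Synpo) and in SpD against IBA, and for Podxl, Wt1, Synpo, and Magi2 between the seasons. Apart from the fewer animals and the smaller set of genes tested, the cause of these changes was not tested.

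Depth is unknown, experiment 1 has no SA, EAr, or LAr animals, and 5 animals a state with a residual SD of 0.31 to 0.55 leave wide intervals for 7 of the genes. A difference that did not pass is therefore not shown to be absent.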
